A study of Macaca mulatta with 22 samples.

Results

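The genes described here belong to the ADAM, ADAMTS, matrix metalloprotease (MMP) and cathepsin families of extracellular, cell-surface and lysosomal proteases. They are called proteases by family, and whether each product is an active enzyme was not examined. They were taken by symbol: every gene whose single symbol on the array is ADAM, ADAMTS or MMP with a number, or CTS with a letter, except MMP1, MMP3 and MMP10. That gave 58 genes of 14132 with a single symbol, made up of 17 ADAMTS, 9 ADAM, 19 MMP and 13 cathepsin genes. Where several probe sets name a gene, the probe set whose mean over the 22 arrays is highest stands for it. ADAM8, ADAM17, CTSB and CTSC had no probe set with a single symbol and are not analysed here.

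RNA of 22 whole dominant follicles of rhesus macaques (Macaca mulatta) was measured, 1 follicle per array. The titles and tissue labels call every sample a follicle, which is followed here, although most sample descriptions speak of the corpus luteum, the body the follicle becomes after ovulation. Females with serum estradiol of 100 to 120 pg/ml had received the GnRH antagonist Acyline and 30 IU each of recombinant human FSH and LH, and all 5 groups share this treatment. The groups are 6 follicles at 0 h without human chorionic gonadotropin (hCG), and, after 1000 IU of recombinant hCG, 4 at 12 h, 4 at 24 h, 4 unruptured at 36 h and 4 ruptured at 36 h. The animals' ages, and whether each follicle came from a separate animal, are not given in the sources used here. The tests treat the 22 follicles as independent, and the p-values could be too small if some follicles share an animal. They reflect how far these follicles varied, which may be technical in part. Replicates of the ruptured group carry the numbers 5 to 8 in the labels. Levels are log2 intensities, where a difference of 1 is a 2-fold difference. Changes carry their standard error (SE), means their standard deviation (SD). Levels of different genes come from different probes and are not compared with each other.

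Ovulation requires the follicle wall to be opened at its apex, the basement membrane between granulosa and theca cells to be taken down and the matrix around the egg to be remodelled. ADAMTS proteases are secreted and many cleave proteoglycans such as versican and aggrecan. ADAM proteases sit in the cell membrane, where several release growth factor domains such as amphiregulin from their precursors. MMPs cleave collagens, laminins and other matrix proteins, and cathepsins work mainly in lysosomes, though some are secreted. TIMPs block MMPs and several ADAM and ADAMTS enzymes, and cystatins block cysteine cathepsins.

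The arrays had medians of 26.15 to 26.71 intensity units and no recorded batch, and their number limits the precision. The summed intensity of 5 granulosa markers was 3836 to 9199 at 0 h, 1368 to 4818 at 12 h, 941.8 to 1761 at 24 h, 568.3 to 2672 in unruptured and 1785 to 2769 in ruptured follicles. The sum of 4 theca markers was 3342 to 6435 at 0 h, 668.5 to 3133 at 12 h, 424.3 to 610.1 at 24 h, 319.2 to 481 in unruptured and 243.1 to 367.6 in ruptured follicles. Such sums follow the brightest markers most and do not speak for every marker. At 24 h against 0 h, limma called 2 of 5 granulosa and 1 of 4 theca markers lower and 0 higher. In ruptured follicles against 0 h it called 2 of 5 granulosa and 3 of 4 theca markers lower and 0 higher. At 24 h against 12 h, 1 of 4 theca markers rose and 1 fell. The tissue is a mixture of cells, so fewer cells of a type and less RNA per cell cannot be told apart.

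Of the 58 protease genes, 18 (31.0%) passed limma's F test over the 5 groups with Benjamini-Hochberg adjustment over all probe sets. The same test called 29.0% of all 14132 genes, so this share is close to the background. By family, 6 of 17 ADAMTS, 4 of 9 ADAM, 5 of 19 MMP and 3 of 13 cathepsin genes passed. Of these 18 genes, 8 had their highest mean in ruptured follicles (ADAMTS1, ADAMTS4, ADAMTS6, ADAM19, MMP7, MMP19, CTSA and CTSL). ADAMTS3, ADAMTS5, ADAMTS18 and ADAM18 were highest at 24 h, MMP2 and MMP14 in unruptured follicles at 36 h, ADAM20 and MMP20 at 12 h, and ADAM12 and CTSV at 0 h. Across the 7 comparisons and the F test, 35 of the 58 genes had no call on the probe set that stands for them. The matching share over all genes was not counted.

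The question set by the time course was which transcripts change between the ovulatory stimulus and rupture. At 12 h against 0 h, 6 proteases rose, where the background was 6.50% of genes higher, and 3 fell, where it was 7.80% lower. ADAMTS4, ADAM18, ADAM20, MMP19, CTSL and CTSS rose, and ADAMTS5, ADAMTS6 and ADAM12 fell. The median change was 0.12 over the 58 proteases and -0.00 over all genes. At 24 h against 12 h, 4 rose (background 5.84%) and 3 fell (background 5.02%), with a median of 0.01 against 0.02 over all genes. ADAMTS3, ADAMTS5, ADAMTS18 and MMP14 rose, and ADAMTS4, ADAM20 and CTSL fell. The 3′ minus 5′ signal index, a sign of RNA quality, ranged over 0.243 to 0.366 in the 24 h follicles (mean 0.306) and over 0.331 to 0.506 in the 12 h follicles (mean 0.391). With that index as a covariate ADAMTS5 and MMP2 (higher) and ADAMTS4 (lower) were called at 24 h against 12 h. The changes that lost their call kept their direction, at -2.09 for ADAM20, 2.23 for ADAMTS18, 0.91 for ADAMTS3, 1.20 for MMP14 and -0.75 for CTSL, with adjusted p-values of 0.0624 to 0.134. At 12 h against 0 h, where the 0 h mean of the index was 0.328, 6 proteases were called with the covariate, without ADAM20 (2.06), ADAMTS6 (-1.11) and CTSS (1.29). The covariate also lowered the calls over all probe sets, from 3628 to 2195 at 24 h against 12 h. At 12 h against 0 h it lowered them from 4922 to 3388. The count of 7 at 24 h against 12 h fell to 4 without 24 h replicate 1.

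Between 24 h and 36 h in unruptured follicles, 0 of 58 proteases were called by limma (background 0% higher and 0.00708% lower), and 3 had an unadjusted p under 0.05. In ruptured against unruptured follicles of the same time, 6 proteases rose (background 6.47%) and 2 fell (background 7.67%), with a median of 0.04 against -0.06 over all genes. ADAMTS1, ADAMTS4, ADAMTS6, ADAM12, MMP19 and CTSL rose, and ADAMTS5 and the probe set that stands for ADAMTS9 fell. ADAMTS4, MMP19 and CTSL (higher) and ADAMTS5 (lower), all called at 12 h, were called in the same direction at rupture. The count of 8 fell to 5 or 6 when any 1 ruptured or unruptured follicle was left out. It was 5 without unruptured replicate 1 or 3 or ruptured replicate 5 or 6. With the mean of all probe sets of a gene 6 rose and 1 fell, and ADAMTS9 was then among those that rose.

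Against 0 h, 2 proteases were higher at 24 h (background 2.87%) and 2 lower (background 2.62%). In unruptured follicles 4 were higher than at 0 h (background 3.35%) and 2 lower (background 3.82%), and these 6 fell to 3 without 0 h replicate 1 or 3 or unruptured replicate 1, 3 or 4. In ruptured follicles 12 were higher (background 9.43%) and 2 lower (background 11.8%), with a median change of 0.05 against -0.03 over all genes. The 12 include ADAM19 and the 2 include ADAMTS9, whose directions depend on the probe set, and with the mean of all probe sets of a gene 10 were higher and 1 lower. These 3 comparisons share the 0 h follicles. Beside the count in ruptured follicles, 4 of 9 neutrophil markers and 3 of 4 smooth muscle markers were higher and 3 of 4 theca markers lower than at 0 h, and their part in it was not tested.

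**Figure D1:**
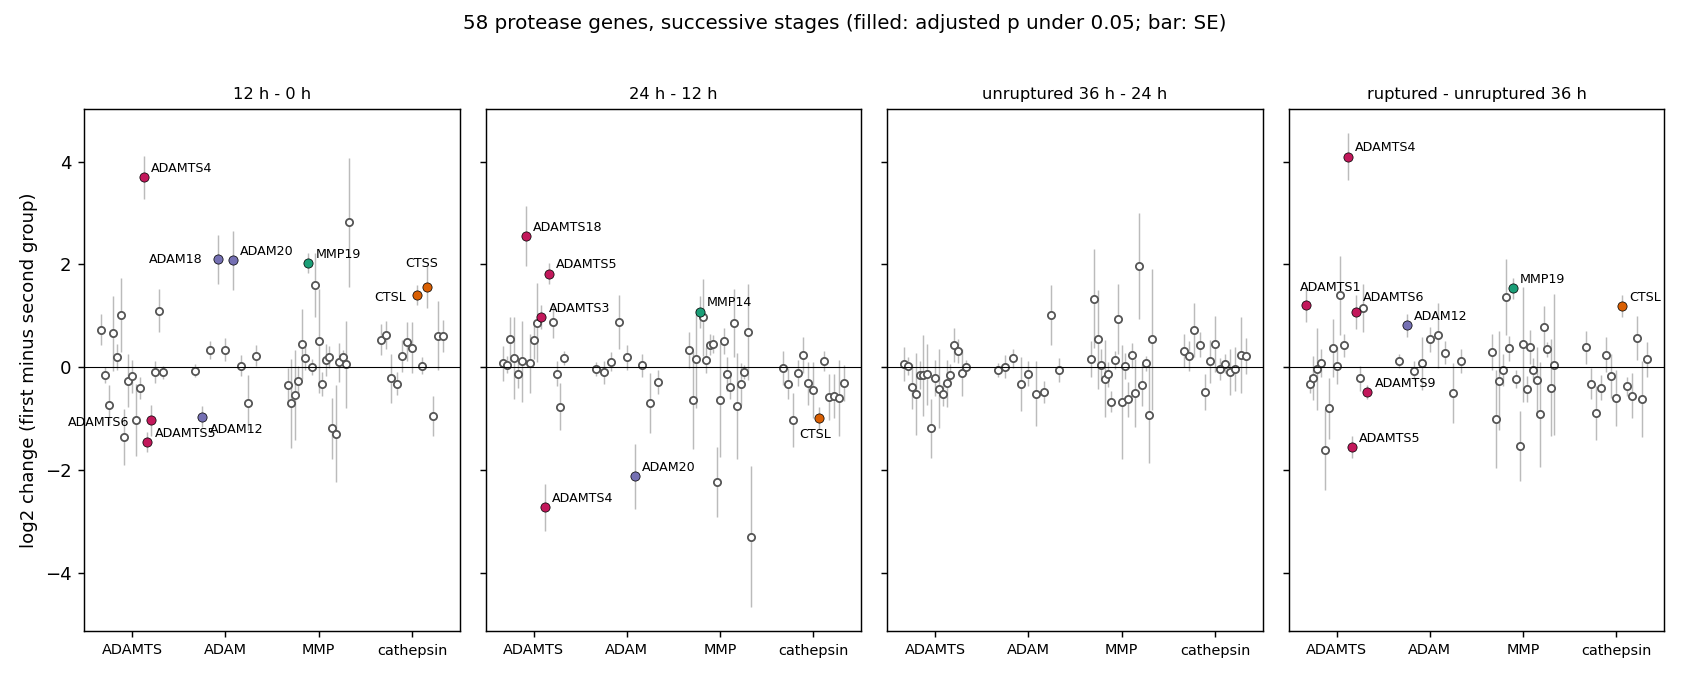
Log2 change of each of the 58 proteases (vertical axis) by family (horizontal axis) in the 4 successive comparisons, with 1 point per gene and its SE as a bar. Filled, named points have an adjusted p under 0.05. The panel of unruptured 36 h minus 24 h has no filled point, while ADAMTS4 stands at 3.70 at 12 h and at 4.09 at rupture.

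Among the proteoglycan-cleaving ADAMTS genes, ADAMTS4, an aggrecanase, had large rises at 12 h and at rupture with a fall between. At 0 h its 6 follicles ranged from 6.25 to 7.36 with a median of 6.73, and at 12 h the values were 10.71, 10.63, 9.95 and 10.50. At 24 h they were 7.15, 7.14, 8.29 and 8.32, in unruptured follicles 7.10, 7.13, 7.36 and 8.10, and in ruptured follicles 11.35, 12.14, 12.67 and 9.89. All 12 h and all ruptured follicles lay above every follicle of the other 3 groups. ADAMTS4 changed by 3.70 ± 0.42 (SE, limma's adjusted p = 2.7e-05) at 12 h against 0 h, by -2.72 ± 0.46 (0.00149) at 24 h against 12 h and by 4.09 ± 0.46 (3.4e-05) in ruptured against unruptured follicles. Its dimmer second probe set changed by 0.80 at 12 h against 0 h, which did not pass the test, and rose by 2.04 at rupture. At 24 h against 12 h that probe set was not called either, with means of 4.79 and 5.59.

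ADAMTS5, the other main aggrecanase, moved the opposite way at each of these steps. Its 0 h follicles ranged from 9.41 to 9.86 with a median of 9.62, and the 12 h follicles were at 8.40, 8.62, 7.67 and 7.98. The 24 h follicles were at 10.44, 9.84, 9.97 and 9.70, the unruptured at 9.91, 9.58, 9.99 and 9.86 and the ruptured at 8.03, 8.06, 8.33 and 8.72. The 12 h and ruptured follicles were thus below all others. The log2 change was -1.45 ± 0.19 (limma's adjusted p = 0.000112) at 12 h against 0 h, 1.82 ± 0.21 (9.82e-05) at 24 h against 12 h and -1.55 ± 0.21 (0.000153) in ruptured against unruptured follicles. All 4 of its probe sets were called in these directions at all 3 steps. ADAMTS4 and ADAMTS5 kept their calls in every setting that was tried.

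ADAMTS1, which cleaves versican in the matrix around the egg and is needed for normal ovulation in mice, was called only in ruptured follicles. It ranged from 8.81 to 9.84 at 0 h with a median of 9.19, and was at 10.32, 10.04, 10.12 and 9.64 at 12 h and at 10.10, 10.19, 9.94 and 10.19 at 24 h. Unruptured follicles were at 10.07, 9.66, 10.11 and 10.83, and ruptured ones at 10.87, 11.97, 12.22 and 10.44, so the groups at 36 h overlapped. At 12 h the change of 0.73 ± 0.30 against 0 h did not pass (limma's adjusted p = 0.156). Ruptured follicles were higher than unruptured by 1.21 ± 0.33 (0.0261) and than 0 h by 2.08 ± 0.30 (0.000112), and the second probe set rose in both by 1.56 and 2.67. The call against unruptured follicles was lost, with an adjusted p of up to 0.094, when unruptured replicate 1, 2 or 3 or ruptured replicate 6 or 7 was left out. ADAMTS1 and ADAMTS5 lie side by side in the macaque RefSeq gene table, with 0 coding genes between them, and moved in opposite directions at rupture.

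For ADAMTS9, another proteoglycanase, the answer depended on the probe set. The probe set with the highest mean averaged 9.25 ± 0.23 (SD, n = 6) before hCG. After it, with n = 4 each, the 12 h mean was 9.15 ± 0.08, the 24 h mean 9.34 ± 0.15, the unruptured mean 9.35 ± 0.18 and the ruptured mean 8.86 ± 0.11. It fell by 0.49 on the log2 scale in ruptured against unruptured follicles (SE 0.14, limma's adjusted p = 0.0292), and a second probe set fell by 0.42 (0.0064). The other 3 probe sets rose in that comparison by 1.83, 2.10 and 2.26, and rose by 1.25 to 1.42 at 12 h against 0 h. On one of them, MmuSTS.2742.1.S1_at, ruptured follicles lay between 10.03 and 10.75, against 7.33 and 9.03 in unruptured ones. No direction is therefore given for ADAMTS9 as a gene. The call on the first probe set was also lost, with an adjusted p of up to 0.102, without unruptured replicate 3 or 4 or ruptured replicate 5, 6 or 7.

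**Figure D2:**
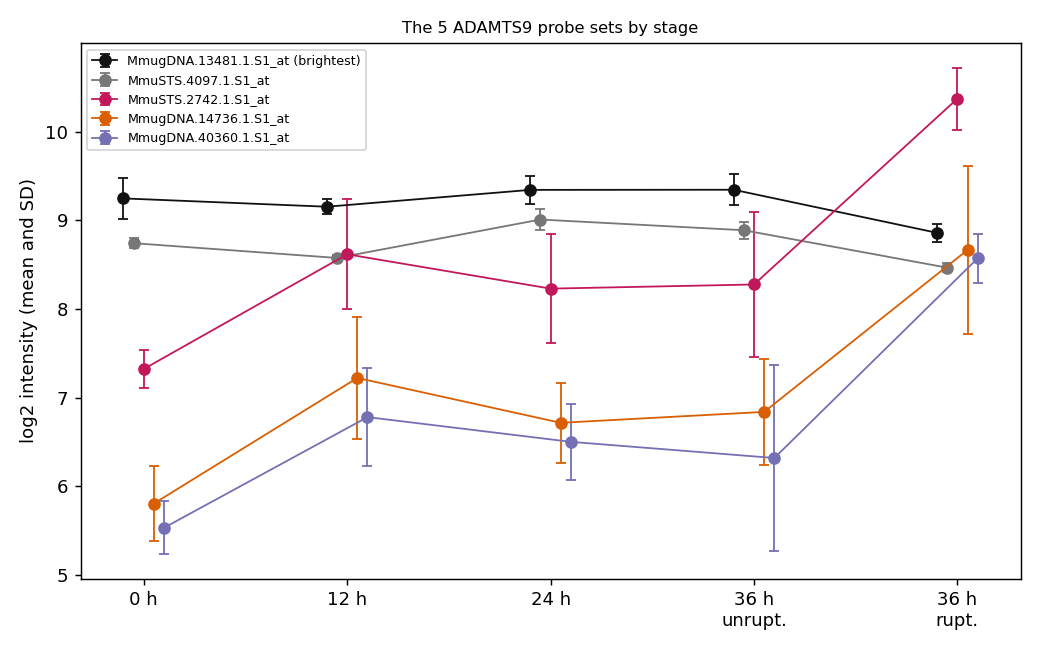
Mean log2 intensity with SD (vertical axis) of the 5 ADAMTS9 probe sets in the 5 groups (horizontal axis, n = 6, 4, 4, 4 and 4). The probe set with the highest mean and MmuSTS.4097.1.S1_at fall slightly in ruptured follicles, while the other 3 rise by 1.83 to 2.26 against unruptured ones.

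ADAMTS8 averaged 7.93 ± 0.69 (SD, n = 4) in ruptured follicles and 6.52 ± 0.81 (n = 6) at 0 h, a change of 1.40 ± 0.42 (limma's adjusted p = 0.0285). That call was lost without 0 h replicate 3, 4 or 5 or ruptured replicate 5, 6 or 7 (adjusted p at most 0.111). A second ADAMTS8 probe set was not called in that comparison. ADAMTS15 and ADAMTS20, the remaining members that cleave proteoglycans, had no call. Across the 7 genes of this role, by their probe set with the highest mean, 2 rose (ADAMTS1 and ADAMTS4) and 2 fell (ADAMTS5 and ADAMTS9) at rupture, with changes from -1.55 to 4.09. With the mean of its probe sets ADAMTS9 instead rose, by 1.05 (limma's adjusted p = 0.00577).

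Other ADAMTS genes had different time courses. ADAMTS6, which acts on fibrillin-rich matrix, ranged from 5.09 to 6.17 at 0 h with a median of 5.56 and was at 5.37, 4.56, 4.33 and 4.07 at 12 h. It was at 5.71, 5.45, 5.70 and 5.02 at 24 h, at 5.85, 5.65, 6.09 and 6.05 in unruptured and at 7.81, 6.68, 6.13 and 7.33 in ruptured follicles. All ruptured follicles were above all unruptured ones, by a narrow gap. The change was -1.03 ± 0.30 (limma's adjusted p = 0.0344) at 12 h against 0 h, 1.08 ± 0.33 (0.0417) in ruptured against unruptured follicles and 1.38 ± 0.30 (0.00327) in ruptured follicles against 0 h. The call at 12 h was lost without any 1 of 0 h replicates 1, 5 and 6 or 12 h replicates 2, 3 and 4 (adjusted p at most 0.125), and that between the 36 h groups without any 1 unruptured follicle or ruptured replicate 5 or 8 (adjusted p at most 0.149). A second ADAMTS6 probe set was called in none of these comparisons. With the mean of its probe sets no call remained, at limma's adjusted p of 0.447, 0.271 and 0.175 in the same order.

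ADAMTS3 and ADAMTS18 rose between 12 h and 24 h. ADAMTS3, which trims the ends of procollagen and activates the lymphatic growth factor VEGFC, ranged from 7.56 to 8.45 at 0 h with a median of 7.99. It was at 7.55, 8.32, 7.41 and 7.27 at 12 h, at 8.92, 8.48, 8.49 and 8.58 at 24 h, at 7.85, 8.17, 8.14 and 8.20 in unruptured and at 8.63, 8.41, 8.18 and 8.84 in ruptured follicles. The 24 h follicles were all above the 12 h ones, with a change of 0.98 ± 0.23 (limma's adjusted p = 0.0125), and the call was lost without 24 h replicate 1 (adjusted p = 0.05). The other procollagen N-propeptidases, ADAMTS2 and ADAMTS14, had no call on their main probe sets. Of the 2 other ADAMTS2 probe sets, 1 was called in ruptured follicles against 0 h.

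ADAMTS18 ranged from 6.06 to 7.82 at 0 h with a median of 7.19, and was at 5.27, 6.67, 4.67 and 6.00 at 12 h and at 7.63, 8.27, 8.76 and 8.17 at 24 h. Unruptured follicles were at 9.08, 8.17, 6.78 and 8.26 and ruptured ones at 7.01, 8.43, 7.95 and 5.73. All 24 h follicles were above all 12 h follicles, by 2.55 ± 0.59 (limma's adjusted p = 0.0125), and the groups at 36 h overlapped. The second ADAMTS18 probe set was not called at 24 h against 12 h, though its change had the same sign.

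**Figure D3:**
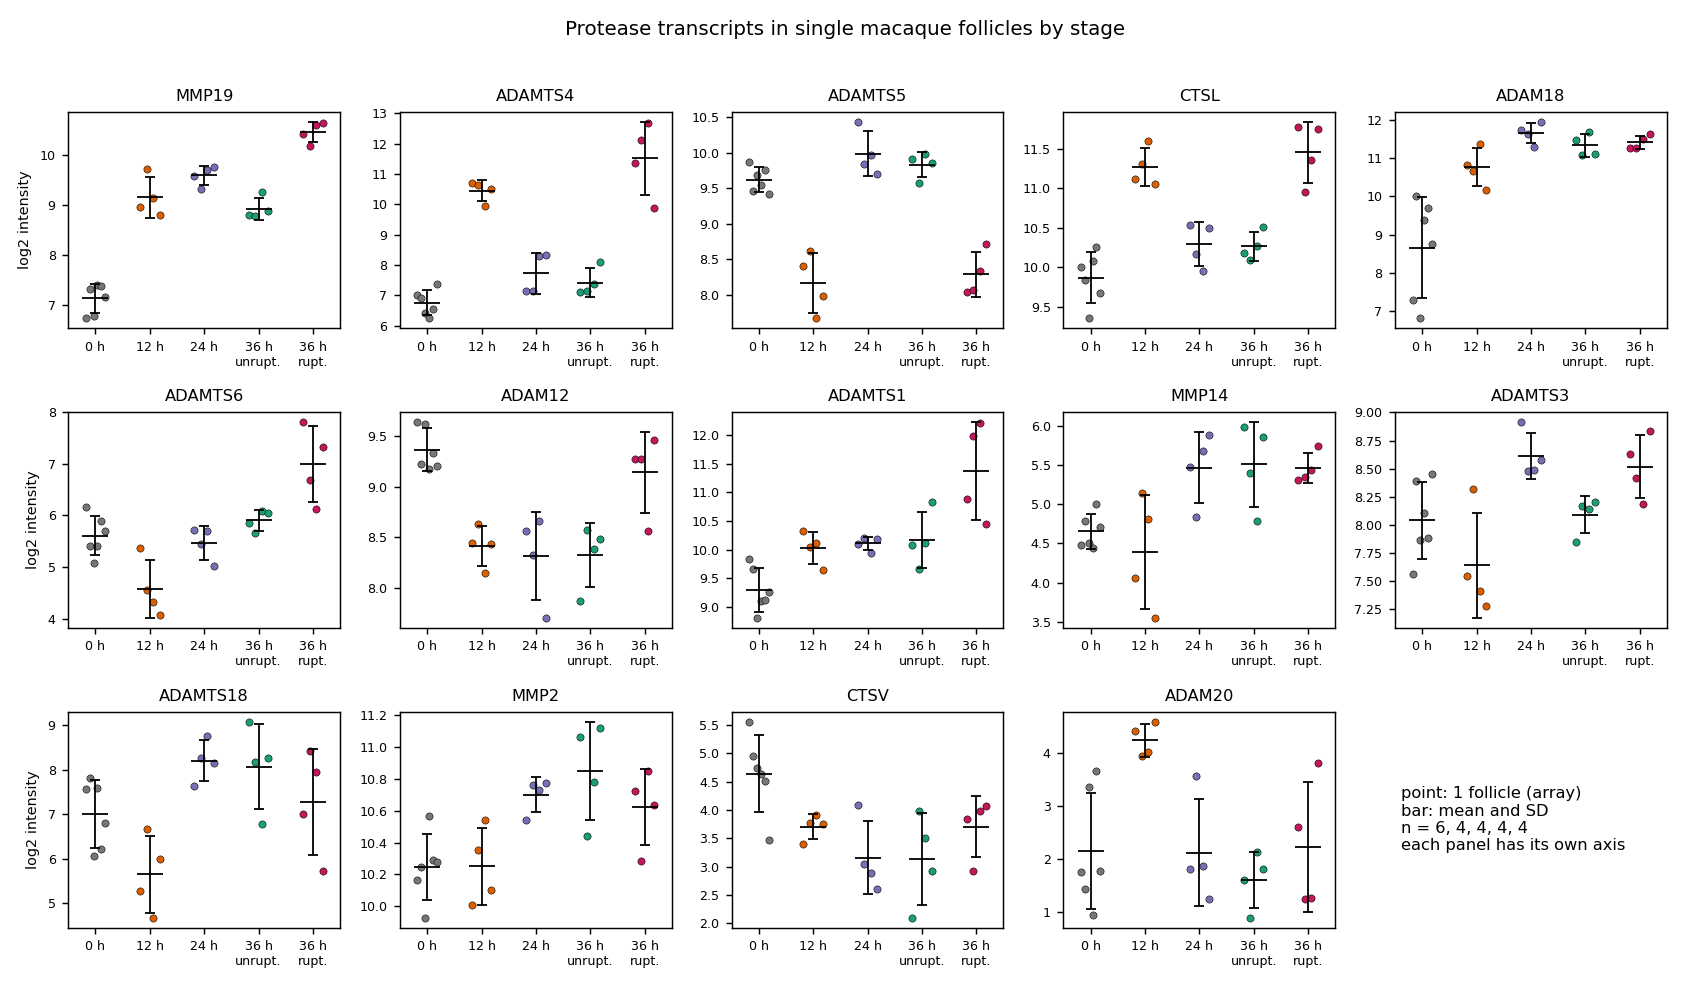
Log2 intensity (vertical axis, its own range in each panel) in the 5 groups (horizontal axis) for the 14 proteases with the smallest F test p. Each point is 1 follicle, and bars give the mean and SD (n = 6, 4, 4, 4 and 4). ADAMTS4 and CTSL are high and ADAMTS5 is low in the 12 h and the ruptured follicles, while MMP19 is above its 0 h range in every later group.

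Of the ADAM genes, ADAM18 is known from sperm in mice and humans and ADAM20 from the human testis. ADAM18 ranged widely at 0 h, from 6.82 to 10.00 with a median of 9.07. It was at 10.82, 10.67, 11.36 and 10.17 at 12 h, at 11.72, 11.62, 11.29 and 11.94 at 24 h, at 11.47, 11.07, 11.67 and 11.10 in unruptured and at 11.25, 11.26, 11.49 and 11.61 in ruptured follicles. Every follicle after hCG lay above every 0 h follicle. The change against 0 h was 2.10 ± 0.48 (limma's adjusted p = 0.00824) at 12 h, 2.99 ± 0.48 (0.00142) at 24 h, 2.67 ± 0.48 (0.00302) in the unruptured group and 2.75 ± 0.48 (0.00053) in the ruptured group. A second ADAM18 probe set, with a mean of 3.19, was called in none of these comparisons, with changes from -0.56 to 0.85.

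ADAM20 was at 4.41, 3.96, 4.02 and 4.60 at 12 h, against 0.96 to 3.67 with a median of 1.78 at 0 h. It was at 1.81, 3.57, 1.88 and 1.25 at 24 h, at 1.61, 0.90, 2.14 and 1.82 in unruptured and at 2.60, 1.26, 1.28 and 3.82 in ruptured follicles. All its values were below the arrays' medians of 4.71 to 4.74, so the size of its changes is uncertain. The 12 h follicles were above all 0 h ones, by 2.08 ± 0.58 (limma's adjusted p = 0.0276), and the 24 h ones below all 12 h ones, by a change of -2.12 ± 0.63 (0.0497). The first call was lost without any 1 of 0 h replicates 1, 2, 4 and 6 or 12 h replicates 1, 2 and 4 (adjusted p at most 0.0779), and the second without any 1 of the 12 h follicles or 24 h replicate 1, 3 or 4 (adjusted p at most 0.129). A second ADAM20 probe set was called in neither comparison.

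ADAM12, a sheddase also known to cleave insulin-like growth factor binding proteins, was high before hCG and again after rupture. It ranged from 9.17 to 9.64 at 0 h with a median of 9.28, and was at 8.44, 8.63, 8.15 and 8.43 at 12 h and at 8.56, 8.32, 8.67 and 7.70 at 24 h. Unruptured follicles were at 7.87, 8.57, 8.39 and 8.48, and ruptured ones at 9.28, 9.28, 8.56 and 9.46. The 12 h, 24 h and unruptured follicles all lay below the 0 h range, with changes of -0.95 ± 0.21 (limma's adjusted p = 0.00601), -1.05 ± 0.21 (0.00652) and -1.04 ± 0.21 (0.0065). Ruptured follicles were higher than unruptured by 0.82 ± 0.23 (0.0265), with ruptured replicate 7 inside the unruptured range. This last call was lost without unruptured replicate 1 or ruptured replicate 5, 6 or 8 (adjusted p at most 0.0979). Of the 2 other ADAM12 probe sets, 1 was called the same way at 12 h against 0 h and 1 at rupture. Both were called at 24 h against 0 h and neither in unruptured follicles against 0 h.

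ADAM10, a widely expressed sheddase, had group means that spanned 0.15, with no call on its main probe set. Of its 2 other probe sets, 1 was called at 24 h against 0 h. ADAM15, a membrane protease with an integrin-binding motif, changed by 0.62 ± 0.17 (limma's adjusted p = 0.0415) in unruptured and by 0.56 ± 0.17 (0.0306) in ruptured follicles against 0 h. Its second probe set was called in neither comparison. The call in unruptured follicles was lost without 0 h replicate 1, 3, 4 or 5 or unruptured replicate 1, 3 or 4 (adjusted p at most 0.131), and that in ruptured follicles without 0 h replicate 3, 4 or 5 or ruptured replicate 6, 7 or 8 (adjusted p at most 0.0962). ADAM19, a membrane-bound relative of ADAM12, averaged 7.80 ± 0.39 (SD, n = 4) in ruptured follicles and 6.84 ± 0.36 (n = 6) at 0 h, a change of 0.96 ± 0.22 (0.0058). Its second probe set, with a mean of 2.62, fell in the same comparison by 1.45 on the log2 scale (0.039), so the direction of ADAM19 depends on the probe set.

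MMP19, which cleaves basement membrane proteins, rose at 12 h, stayed up and was highest after rupture. At 0 h it ranged from 6.73 to 7.40 with a median of 7.23, and at 12 h it was at 8.96, 9.73, 9.14 and 8.79. It was at 9.59, 9.33, 9.70 and 9.77 at 24 h, at 8.79, 8.78, 9.25 and 8.87 in unruptured and at 10.41, 10.19, 10.60 and 10.64 in ruptured follicles. Every follicle after hCG was above every 0 h follicle, and every ruptured one above all others. The log2 change against 0 h was 2.03 ± 0.19 (limma's adjusted p = 4.29e-06) at 12 h, 2.47 ± 0.19 (6.56e-07) at 24 h, 1.80 ± 0.19 (3.61e-05) in the unruptured group and 3.34 ± 0.19 (3.61e-09) in the ruptured group. Ruptured follicles were higher than unruptured ones by 1.54 ± 0.20 (0.000142). Unruptured follicles at 36 h were all below those at 24 h, by a change of -0.67 ± 0.20 that did not pass the test (0.614). A second probe set rose by 2.60 at 12 h against 0 h and by 2.59 at rupture. That probe set was not called in unruptured follicles against 0 h, with means of 4.44 and 2.95.

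MMP14 and MMP2 work in sequence: MMP14, a membrane-type MMP, activates the pro-form of MMP2, the gelatinase A. MMP14 ranged from 4.44 to 5.01 at 0 h with a median of 4.61, and was at 4.06, 5.15, 4.81 and 3.55 at 12 h. It was at 5.47, 4.84, 5.68 and 5.89 at 24 h, at 5.99, 5.40, 4.79 and 5.86 in unruptured and at 5.32, 5.36, 5.44 and 5.74 in ruptured follicles. The 24 h and 12 h groups overlapped, with a change of 1.08 ± 0.31 (limma's adjusted p = 0.0437) and of 1.90 (0.0088) on a dimmer probe set. The remaining probe set averaged 5.05 at 24 h and 4.73 at 12 h and was not called. The first call was lost when 12 h follicle 1 or 4 or 24 h follicle 1, 3 or 4 was left out (adjusted p at most 0.15).

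MMP2 ranged from 9.93 to 10.56 at 0 h with a median of 10.26, and was at 10.01, 10.35, 10.54 and 10.10 at 12 h and at 10.54, 10.76, 10.73 and 10.77 at 24 h. Unruptured follicles were at 11.06, 10.44, 10.78 and 11.12 and ruptured ones at 10.72, 10.29, 10.85 and 10.64. The shifts were small: unruptured follicles were higher than 0 h ones by 0.61 ± 0.16 (limma's adjusted p = 0.0318), with 1 of the 4 inside the 0 h range. That call was lost without 0 h replicate 1, 2, 3 or 6 or unruptured replicate 1, 3 or 4 (adjusted p at most 0.12). A second, dimmer MMP2 probe set was not called in that comparison.

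MMP15, another membrane-type MMP, was at 3.69, 4.81, 5.03 and 4.97 in ruptured follicles, against 0.80 to 3.89 with a median of 1.70 at 0 h. In all, 3 of the 4 ruptured follicles were above the 0 h range, with a change of 2.57 ± 0.68 (limma's adjusted p = 0.0129) on a probe set whose mean was below the arrays' medians. MMP7, the small protease matrilysin, changed by 0.55 ± 0.13 (0.00635) in ruptured follicles against 0 h. None of its 3 other probe sets was called there, and the mean of its probe sets changed by 0.62 (0.382). MMP20, the enamel protease, passed the F test (0.0389) but no single comparison, and its mean was also below the arrays' medians. The remaining membrane-type genes MMP16, MMP24 and MMP25 had no call.

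MMP9, the gelatinase B of neutrophils and macrophages, had no call but the widest changes of the uncalled genes. It was at 6.97, 10.34, 10.92 and 5.80 at 12 h, against 3.31 to 8.07 with a median of 5.99 at 0 h, a change of 2.82 ± 1.25 (limma's adjusted p = 0.188). At 24 h it was at 7.49, 2.52, 3.45 and 7.42, at a change of -3.29 ± 1.37 against 12 h (0.18). Follicles of 1 group thus differed more than the groups did.

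CTSL, a lysosomal cysteine protease that is also secreted, followed the same course as ADAMTS4, up at 12 h, down at 24 h and up after rupture. It ranged from 9.36 to 10.26 at 0 h with a median of 9.92, and was at 11.12, 11.31, 11.60 and 11.06 at 12 h and at 10.54, 10.17, 9.96 and 10.50 at 24 h. Unruptured follicles were at 10.19, 10.09, 10.27 and 10.51, and ruptured ones at 11.77, 10.95, 11.36 and 11.75. All 12 h and ruptured follicles were above all other follicles. CTSL changed by 1.40 ± 0.19 (limma's adjusted p = 0.000184) at 12 h against 0 h, by -0.98 ± 0.21 (0.00868) at 24 h against 12 h, and by 1.19 ± 0.21 (0.0015) in ruptured against unruptured follicles.

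CTSV, a close relative of CTSL whose probes could share its transcripts, had values of 3.47 to 5.56 at 0 h with a median of 4.68. It was at 3.39, 3.76, 3.91 and 3.75 at 12 h, at 4.08, 3.05, 2.89 and 2.60 at 24 h, at 2.10, 3.99, 3.51 and 2.93 in unruptured and at 3.84, 2.92, 3.99 and 4.08 in ruptured follicles. Its mean was below the arrays' medians, and the groups overlapped. The change was -1.48 ± 0.39 (limma's adjusted p = 0.0404) at 24 h and -1.51 ± 0.39 (0.0308) in unruptured follicles against 0 h. The first was lost without any 1 of 0 h replicates 1 to 5 or 24 h replicate 2, 3 or 4 (adjusted p at most 0.146), and the second without 0 h replicate 1, 2 or 3 or unruptured replicate 1, 3 or 4 (adjusted p at most 0.122).

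CTSS, a cysteine cathepsin of antigen-presenting cells, was at 8.97, 9.44, 10.29 and 7.57 at 12 h, against 7.04 to 8.10 with a median of 7.38 at 0 h. In all, 3 of the 4 follicles at 12 h were above the 0 h range, with a change of 1.56 ± 0.40 (limma's adjusted p = 0.0181), and 2 of its other 3 probe sets were called the same way. The call was lost without 12 h replicate 2 or 3 (adjusted p at most 0.0751), with a covariate for the 3′ minus 5′ signal (0.0841) and in a fit of the 2 groups alone (0.0935). The 12 h follicle with the highest CTSS, replicate 3, also had the highest index of all arrays, 0.506, and the part of RNA quality in this change was not tested further. Of 10 macrophage and monocyte markers measured, 5 (CD14, AIF1, TYROBP, LYZ and CD86) rose in the same comparison and 0 fell. Their summed intensity at 12 h was 4631, 5088, 6380 and 2336 in replicates 1 to 4, against 1634 to 2884 at 0 h, so that 12 h replicate 4 was the lowest of its group both for the markers and for CTSS and MMP9. From high to low, the 12 h markers, CTSS and MMP9 all ranked as replicates 3, 2, 1 and 4. CTSA, CTSD, CTSH, CTSK, CTSL and CTSZ had this order at 12 h too, while CTSE, CTSF, CTSG, CTSO, CTSV and CTSW did not. The part of these cells in the values of the cathepsins and MMP9 was not tested.

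**Figure D4:**
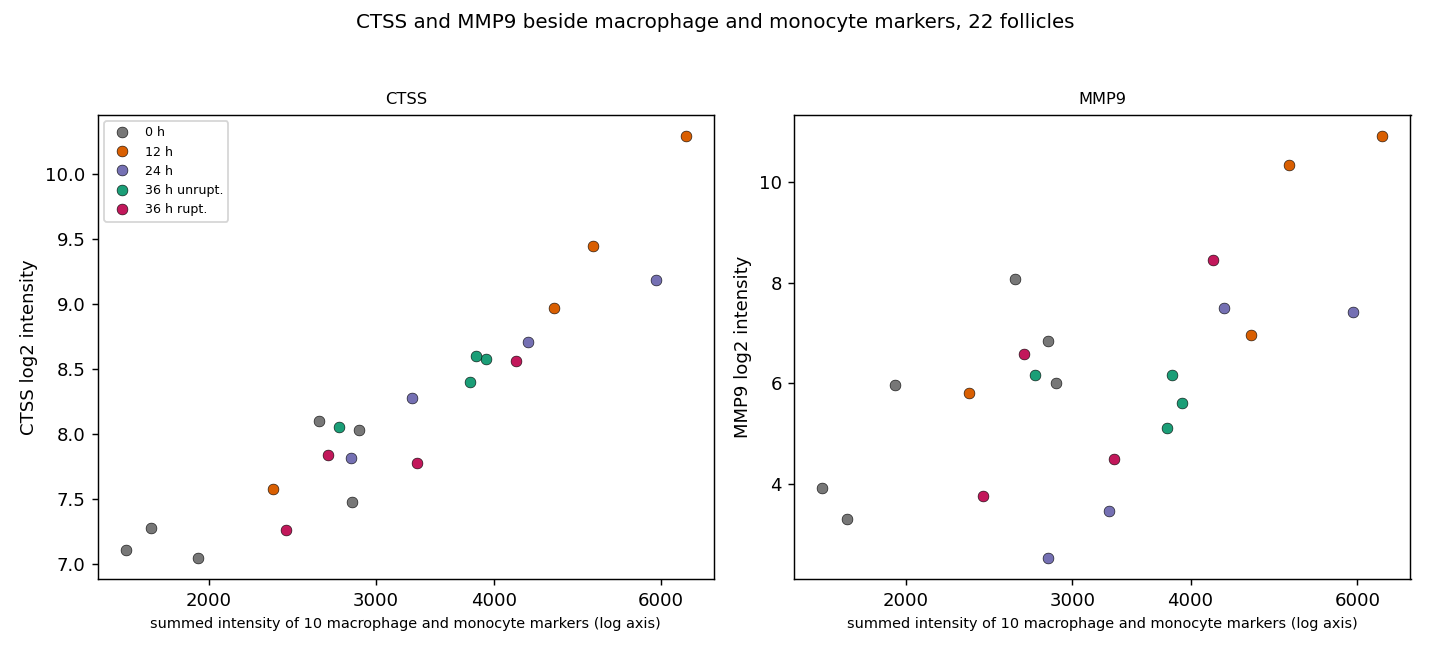
Log2 intensity of CTSS and of MMP9 (vertical axes) in the 22 follicles against the summed intensity of 10 macrophage and monocyte markers (horizontal log axis), coloured by group. The 12 h follicle with the highest marker sum, 6380, has the highest CTSS and MMP9 values, 10.29 and 10.92.

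CTSA, a serine carboxypeptidase that protects lysosomal glycosidases, averaged 10.42 ± 0.39 (SD, n = 4) in ruptured follicles and 9.19 ± 0.33 (n = 6) at 0 h, a change of 1.24 ± 0.30 (limma's adjusted p = 0.00725). The other cathepsins of the panel had no call. The aspartic protease CTSD changed by 0.63 ± 0.27 (0.173) at 12 h against 0 h, the aminopeptidase CTSH by 0.50 ± 0.38 (0.502), the collagen-degrading CTSK by 0.38 ± 0.49 (0.734) and the carboxypeptidase CTSZ by 0.61 ± 0.31 (0.278). In ruptured against unruptured follicles these were -0.32 ± 0.30 (0.6), -0.17 ± 0.42 (0.876), -0.60 ± 0.54 (0.582) and 0.16 ± 0.34 (0.851).

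The 35 proteases without a call were 9 ADAMTS, 4 ADAM, 13 MMP and 9 cathepsin genes. Their changes ran from -3.29 to 2.82, both of them in MMP9, and 16 of them had a mean below the arrays' median. Among the 110 probe sets of the 58 genes, 34 genes had more than 1. In 19 of 39 cases where the main probe set of such a gene was called, at least 1 other probe set was called in the same direction, and 7 single calls, all of ADAMTS9 and ADAM19, went the opposite way. In 11 further cases the main probe set was not called while another of the gene was, so no call on the main probe set does not speak for every probe set.

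Genes that act with the proteases were described by lists. Of 9 inhibitors measured, 3 rose and 1 fell at 12 h against 0 h. TIMP1, a secreted MMP inhibitor, rose by 1.38 ± 0.12 (limma's adjusted p = 2.46e-06), with a mean of 13.45 ± 0.08 (SD, n = 4), against 12.07 ± 0.27 before hCG (n = 6), and was also higher than at 0 h in each later group, by 1.22 to 1.45. The cystatin CSTA rose by 1.52 ± 0.45 (0.0383), and TIMP3, which binds to the matrix and also blocks ADAMTS4 and ADAMTS5, by 1.09 ± 0.30 (0.0246). RECK, a membrane-anchored MMP inhibitor, fell by 0.75 on the log2 scale (SE 0.15, 0.00291). At 24 h against 12 h, RECK rose by 0.79 ± 0.16 (0.00527) and TIMP2, which also takes part in MMP2 activation, by 0.64 ± 0.16 (0.0205). In ruptured against unruptured follicles 1 of 9 inhibitors changed, RECK by -0.52 ± 0.16 (0.0467), while TIMP1 changed by 0.23 ± 0.13 (0.323), TIMP2 by -0.41 ± 0.16 (0.123) and TIMP3 by 0.38 ± 0.32 (0.552).

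Of 5 genes of the plasminogen system, whose protease plasmin activates several MMPs, 3 rose and 0 fell at rupture. SERPINB2, an inhibitor of urokinase, rose by 3.69 ± 0.80 (limma's adjusted p = 0.00589), averaging 7.11 ± 2.56 (SD) in ruptured and 3.42 ± 0.35 in unruptured follicles (n = 4 each). PLAUR, the urokinase receptor, rose by 1.58 ± 0.27 (0.00117), and PLAU, urokinase, by 1.28 ± 0.29 (0.00728). PLAU also rose at 12 h against 0 h, by 1.54 ± 0.26 (0.000988), while the protease inhibitor SERPINE2 fell by 0.48 on the log2 scale (SE 0.14, 0.0296).

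Of 13 proteoglycan, collagen and laminin genes, which code for substrates, 0 rose and 1 fell at 12 h against 0 h, 2 rose and 0 fell at 24 h against 12 h, and 0 rose and 1 fell at rupture. HSPG2, the basement membrane proteoglycan perlecan, changed by -0.96 ± 0.20 (limma's adjusted p = 0.00392) at 12 h against 0 h. At 24 h against 12 h, ACAN, the aggrecan that ADAMTS4 and ADAMTS5 cleave, rose by 0.92 ± 0.21 (0.0123) and the laminin gene LAMB1 by 0.66 ± 0.16 (0.0141). In ruptured against unruptured follicles LAMB1 fell by 0.53 on the log2 scale (SE 0.16, 0.0373).

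Among 10 ligands that ADAM proteases can release, 2 rose and 2 fell at 12 h against 0 h, and 2 rose and 1 fell at rupture. AREG, amphiregulin, rose by 7.44 ± 0.87 (limma's adjusted p = 3.55e-05) at 12 h and by 4.20 ± 0.95 (0.00795) in ruptured against unruptured follicles. HBEGF, another ligand of the EGF receptor, changed by -1.28 ± 0.28 (0.0098) at 24 h against 12 h and by 2.00 ± 0.28 (0.000249) at rupture. KITLG, the kit ligand, fell at 12 h by 1.80 on the log2 scale (SE 0.53, 0.0388).

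Of 11 further lysosomal genes, 1 rose and 0 fell at 12 h against 0 h, and 2 rose and 0 fell at rupture, with a median change of 0.22 in both. TFEB, a transcription factor of lysosomal genes, rose by 0.95 ± 0.18 (limma's adjusted p = 0.00226) at 12 h and by 0.66 ± 0.20 (0.0386) at rupture. NPC1, which exports cholesterol from lysosomes, rose at rupture by 1.19 ± 0.20 (0.00078). At 24 h against 12 h, M6PR, a receptor that sorts enzymes to lysosomes, changed by -0.44 ± 0.12 (0.0266). Of 11 relatives and activators outside the symbol rule, 1 rose at 12 h, FURIN, the convertase that activates many pro-ADAM and pro-MT-MMP enzymes, by 0.78 ± 0.13 (0.00102). ADAMTSL1, an ADAMTS-like protein without protease activity, rose by 0.74 ± 0.21 (0.0402) at 24 h against 12 h.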

How the data were processed

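Deposited were intensities of each probe set on each array, made with RMA per the submitters' processing notes (version not given in the sources used here). They ran from 0.0361 to 15137, a linear scale, so log2 was taken. RNA came from whole single follicles, and groups and replicate numbers from the sample titles. Without 99 control probe sets, 52766 remained. Symbols came from the platform annotation, and 57 of 58 gene IDs matched the macaque RefSeq table, all but that of ADAMTS4. Group means of all 22 arrays were fitted by lmFit and eBayes (limma 3.58.1, R 4.3.3), with an F test and 7 two-sided contrasts. Benjamini-Hochberg adjustment ran over all probe sets, at a threshold of 0.05. Background shares are over 14132 genes, each by its probe set with the highest mean. No detection call, scan date or batch was given. No 2 arrays were identical, and the highest pairwise correlation was 0.918. The fit was tested on simulated data.

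The members, lists, roles and tests were chosen with earlier results of these data known. The text names the called genes (at most 8 highest and 8 lowest per comparison), a fixed panel, per-array values for the 14 smallest F test p, and at most 2 called genes per list and comparison plus TIMP1, TIMP2 and TIMP3. CTSS, MMP9, MMP15 and ADAM20 values beyond this rule, MMP20 and the markers named were chosen after their values were seen. Alternatives were quantile normalization, 16 added before log2, trended and robust variance, array weights, a filter on dim probe sets, the 3′ minus 5′ signal index as a covariate, the mean of a gene's probe sets, fits of the 2 groups alone, a replicate block and leaving out each follicle.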

Additional observations from a re-analysis of the deposited data

Results flagged for a closer look

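Among 145 group tests over the 29 named proteases, 6 had 1 follicle far from the others of its group, and chance gives about 1 in 20. ADAM10 was at 9.76 in ruptured replicate 7, against 9.97 to 10.00 in the other ruptured follicles. ADAM19 was at 7.87 in 24 h replicate 3, against 7.16 to 7.25 in the other 24 h follicles. It was also at 8.38 in ruptured replicate 6, against 7.59 to 7.62 in the other 3. ADAMTS9, on its probe set with the highest mean, was at 8.81 in 0 h replicate 2, against 9.25 to 9.46 in the other 0 h follicles. CTSA was at 9.57 in 24 h replicate 1, against 9.74 to 9.77. MMP15 was at 3.69 in ruptured replicate 5, against 4.81 to 5.03 in the other ruptured follicles.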

How the results depend on the processing

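All 48 called values of named proteases kept their direction and call with 16 added before log2 and with quantile normalization, and the 43 that remained testable did so after a filter on dim probe sets. Of the 48, 47 kept the call with trended, robust variance, 46 with array weights, 39 with a covariate for the 3′ minus 5′ signal index, 37 with the mean of all probe sets of a gene and 27 in fits of only the 2 groups compared. With a replicate block 24 of the 40 that could be fitted kept it, in a fit where ruptured replicates 7 and 8 have no same-numbered follicle. The mean index was 0.391 at 12 h and 0.328 at 0 h, and with it 3 members were called at 24 h against 12 h in place of 7 and 6 at 12 h against 0 h in place of 9. Over all probe sets the covariate lowered the calls from 3628 to 2195 and from 4922 to 3388 in these 2 comparisons. In fits of only the 2 groups, 5 members were called at 12 h against 0 h, 2 at 24 h against 12 h, 4 in ruptured against unruptured follicles and 2 in unruptured follicles against 0 h. Calls over all probe sets fell there from 4922 to 2740, 3628 to 189, 5181 to 1318 and 2492 to 1365, in the same order. With the mean of all probe sets of a gene, ADAMTS9 changed by 0.74 at 12 h against 0 h, by 1.05 in ruptured against unruptured follicles and by 1.66 in ruptured follicles against 0 h, and ADAM19 by -0.25 in the last. It also ended 8 calls, 3 of ADAMTS6 and 1 each of ADAMTS8, ADAM15, ADAM20, MMP2 and MMP7. The cause of the reversals was not tested beyond the opposite probe sets given above.

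Same-numbered replicates did not vary together: over 26 pairs the correlations ran from -0.18 to 0.17, and 1 exceeded 0.1, so the numbers were not taken as pairs. With a replicate block, 11 members passed the F test in place of 18 and 5 were called in ruptured follicles against 0 h in place of 14. Over all probe sets these calls fell from 10626 to 4285 and from 8332 to 1036. Ruptured replicates 7 and 8 share their number with no other follicle, so the block leaves only ruptured replicates 5 and 6 for the comparison with 0 h. No paired analysis was possible for ruptured against unruptured follicles because they share no number.

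Without 1 follicle each, 13 to 19 members passed the F test, 6 to 9 were called at 12 h against 0 h, 4 to 7 at 24 h against 12 h, 0 in unruptured follicles against 24 h and 5 to 6 in ruptured against unruptured follicles. Against 0 h, 3 to 4 were called at 24 h, 3 to 6 in unruptured and 11 to 14 in ruptured follicles. The count in unruptured follicles against 0 h fell to 3 without 0 h replicate 1 or 3 or unruptured replicate 1, 3 or 4. That at 24 h against 12 h fell to 4 without 24 h replicate 1, and that in ruptured against unruptured follicles to 5 without unruptured replicate 1 or 3 or ruptured replicate 5 or 6. MMP19, ADAMTS4 and ADAMTS5 kept every call in all settings. The probe sets of ADAM20, CTSV, MMP15 and MMP20 had means below the arrays' medians, which limits what their changes say.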

Other observations

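CTSK and CTSS lie side by side in the macaque RefSeq gene table, with 0 coding genes between them. At 12 h against 0 h CTSS rose by 1.56 ± 0.40 (limma's adjusted p = 0.0181) and CTSK changed by 0.38 ± 0.49 (0.734). CTSK varied widely at 12 h, at 9.33, 11.40, 12.42 and 9.07, and its follicles ranked as they did for CTSS. ADAMTS8 and ADAMTS15 are another such pair. ADAMTS8 changed by 1.40 ± 0.42 (0.0285) in ruptured follicles against 0 h, and ADAMTS15 had no call. Whether neighbours differed was not tested.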
